A study of Homo sapiens with 64 samples.

Results

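The genes described here are 34 human genes of the endoplasmic reticulum (ER) stress and amino acid responses, measured in BEAS-2B cells given a beta2-adrenoceptor agonist, a phosphodiesterase 4 (PDE4) inhibitor or both. They were chosen by name, as every probe set whose annotation names one of the 34 symbols: 74 of 54613 probe sets, of which 70 name 1 gene and 4 name several. By gene, 33 of the 34 were tested, of 19775 genes in all. They comprise 17 genes of protein folding and ER-associated degradation, 5 sensors and factors (ERN1, EIF2AK3, ATF6, XBP1, WFS1) and 11 genes of the ATF4 branch. SYVN1, an ER ubiquitin ligase, was not tested because its probe set also names a microRNA gene, and 2 probe sets of HSP90B1 and 1 of PHGDH were left out for the same reason of several names.

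BEAS-2B is an immortalised line of human bronchial epithelial cells. Cells kept for 24 h in keratinocyte serum-free medium without its growth supplements received vehicle, 10 nM indacaterol (a long-acting beta2-adrenoceptor agonist that raises cyclic AMP), 10 nM GSK 256066 (an inhibitor of PDE4, an enzyme that breaks down cyclic AMP) or 10 nM of each. RNA was taken after 1, 2, 6 and 18 h and hybridised to 64 one-colour Affymetrix arrays, 4 for each of the 16 combinations of treatment and time. No other agent is named for any group, and the labels do not say that the 4 replicates were separate cultures, so p-values measure only the spread between these arrays. Signals are the submitters' normalised linear intensities, changes are differences of log2(signal + 16), which understate the change of dim genes, and values in fours are replicates 1, 2, 3 and 4 in that order.

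When unfolded proteins build up in the ER, 3 membrane sensors respond: IRE1 (the product of ERN1), which splices the mRNA of the transcription factor XBP1, ATF6, which is cleaved to a transcription factor, and PERK (the product of EIF2AK3), which phosphorylates the translation factor eIF2-alpha. XBP1 and ATF6 act on genes of chaperones and of ER-associated degradation, such as HSPA5, DNAJB9, HERPUD1 and EDEM1. Phosphorylated eIF2-alpha slows translation in general but raises that of ATF4, and so does amino acid shortage through another kinase. ATF4 acts on ATF3, DDIT3, CHAC1, SESN2 and the amino acid synthesis genes ASNS, PSAT1 and PHGDH. Several of these genes, among them ATF3, also respond to other signals, cyclic AMP included. An expression array reads neither the splicing of XBP1 nor phosphorylation.

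Array medians lay between 101 and 127, and no 2 arrays held the same values. The arrays labelled replicate 3 stood apart: the summed signal of the 9 measured airway epithelial markers was 323229 to 473732 on them and 9672 to 21049 on the others. Most of that was KRT14, whose mean by replicate number was 331009 in replicate 3 and 23.6, 23.8 and 24.6 in replicates 1, 2 and 4. KRT8 (3048 to 6726) and KRT18 (5118 to 9853) were bright on every array, KRT19 reached down to 0.00396, and the mesenchymal marker VIM was 9574 to 12236. The summed markers of other cell types were 1014 to 1420.5 outside replicate 3 and 1196 to 1547 in it for 5 leukocyte genes, 498 to 773 and 527 to 757 for 3 endothelial genes, and 21363 to 25309.7 and 20149.9 to 22320.4 for 8 mesenchymal genes. The difference of replicate 3 was not limited to markers. The highest signal of an array was 265824 to 1.08e+06 in replicate 3 and 16839.5 to 18914 on the others. Of all genes 1.66% were higher on every replicate 3 array than on any other, and 1.71% lower. No other number exceeded 0.086% in either direction. The cause was not tested. Replicate 3 occurs once in every group, and the calls that changed without it are given with the comparison they belong to. In bulk RNA, a change in the number of cells of a kind and in RNA per cell cannot be told apart.

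At 2 h indacaterol raised 3 of the 33 genes: HERPUD1, a membrane protein of ER-associated degradation, EIF2AK3, the PERK kinase, and DNAJB9, an ER co-chaperone of HSPA5. Limma called 3 of 33 at an adjusted p under 0.05 (Benjamini-Hochberg over all genes), against a background of 1.2% of all genes. That fit held no term for replicate number. Of the folding and degradation genes 2 of 17 rose in it, of the sensors and factors 1 of 5, and of the ATF4 branch 0 of 11. At an unadjusted p under 0.05 the counts were 3, 2 and 1, where 8.01% of all genes had such a p. With replicate number as a term, an alternative here by the pairing rule given below, limma called 8 of 33, all higher (background 3.8%). In the same order these were 3 of 17, 3 of 5 and 2 of 11, so the count of 0 for the ATF4 branch depends on the fit. The ER chaperones and disulphide isomerases HSPA5, HSP90B1, CALR, CANX, PDIA3, PDIA4 and PDIA6 gave log2 changes from -0.067 (HSP90B1) to 0.082 (PDIA4), with HSPA5, the BiP chaperone, at -0.039 (95% interval -0.24 to 0.16).

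**Figure D1:**
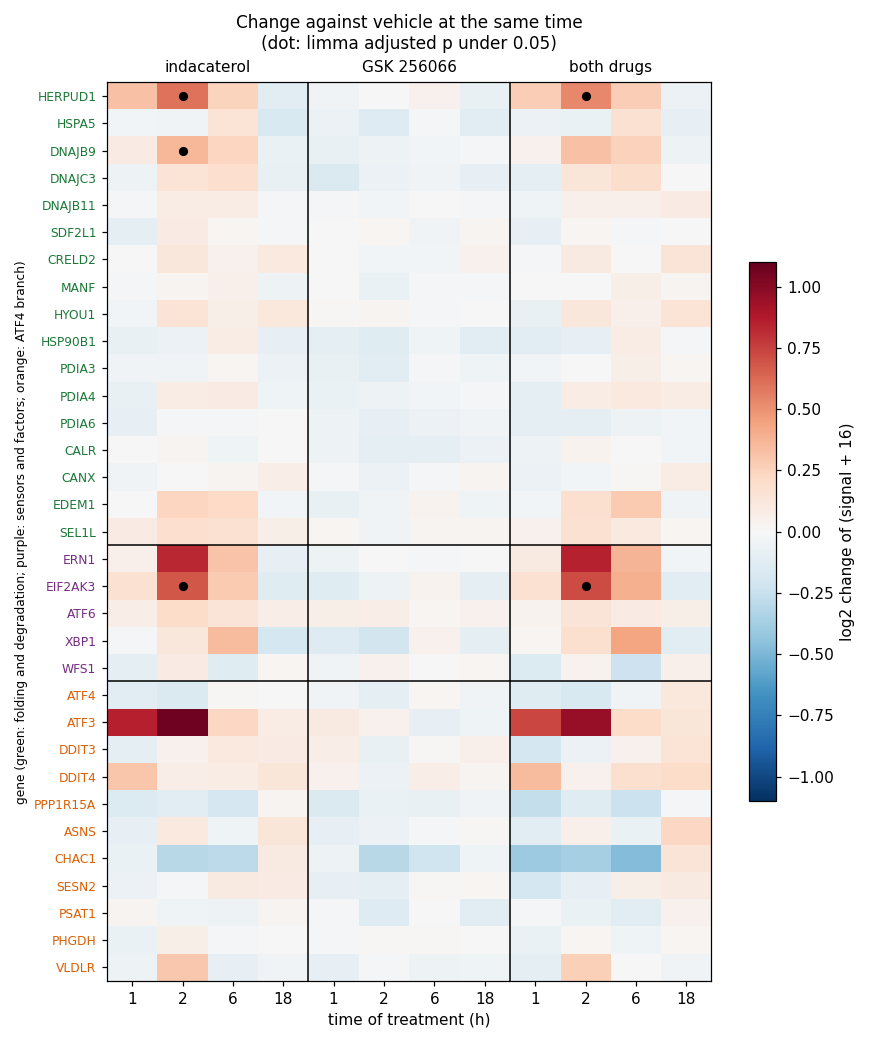
Log2 change of (signal + 16) against vehicle at the same time (colour) for 33 genes (rows, grouped by role) under indacaterol, GSK 256066 or both at 1, 2, 6 and 18 h (columns). Each cell is a difference of means of 4 arrays, and black dots mark limma adjusted p under 0.05, all 5 of them in the 2 h columns of indacaterol and both drugs.

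HERPUD1 gave signals of 3197, 2966, 3329 and 2828 in vehicle replicates 1 to 4 at 2 h and of 5428, 4503, 4682 and 4096 in the indacaterol replicates. All 4 treated arrays were brighter than all 4 vehicle arrays. The mean was 4677 ± 558 (SD, n = 4) against 3079.9 ± 225, a log2 change of 0.60 ± 0.098 (SE) or 1.51-fold (limma, adjusted p = 6.89e-05). Leaving out any 1 of the 8 arrays, or any 1 replicate number, kept this call. It was lost when the fit held only the 8 arrays compared (adjusted p = 0.0741) and when the gene's 2 probe sets were averaged (0.25, adjusted p = 0.777), the other probe set having a mean signal of only 7.17.

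EIF2AK3 gave 984, 1044, 914 and 1237 with vehicle and 1935, 1576, 1938 and 1347 with indacaterol. The groups did not overlap, although treated replicate 4 came close to vehicle replicate 4. The change was 0.69 ± 0.15, or 1.61-fold (limma, adjusted p = 0.00629). The call was kept without replicate number 3 (0.0185) but lost without indacaterol replicate 1 or 3 alone (adjusted p = 0.0547 and 0.0502), without replicate number 1 or 2 (0.317 and 0.0732), with only the arrays compared (0.142), and with the mean of its 2 probe sets (0.191, at 0.27). Its other probe set was dim, with a mean signal of 24.3.

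DNAJB9 gave 1772, 2012, 2124 and 2019 with vehicle and 2517, 2623, 2556 and 2529.5 with indacaterol, again without overlap. The change was 0.37 ± 0.093, or 1.29-fold (limma, adjusted p = 0.0237). Its 2 dimmer probe sets gave 0.40 and 0.20 (adjusted p = 0.571 and 0.765). The call was lost without vehicle replicate 1 (adjusted p = 0.177), without indacaterol replicate 1, 2 or 3 (0.0578, 0.0814 and 0.0642), without replicate number 1, 2 or 4 (0.573, 0.139 and 0.145), with only the arrays compared (0.162) and with the mean of its probe sets (0.426).

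The promoters of these genes differ in the elements that ER stress factors are known to bind, and stretches before the start sites of 4 members are shown as examples: HERPUD1, DNAJB9 and HSPA5 of the folding branch and ATF3 of the ATF4 branch. They are RefSeq sequences of build GRCh38.p14, written 5′ to 3′ on the gene's strand, with every match to the motifs searched in capitals. In HERPUD1 (plus strand, chr16:56931946-56932056) the capitals mark, in order, a short CRE, a C/EBP-ATF element, a palindromic XBP1 core and the second ER stress element, which overlaps a further core. In DNAJB9 (plus strand, chr7:108569781-108569850) they mark XBP1 cores, in HSPA5 (minus strand, chr9:125241371-125241429) the ER stress element, and in ATF3 (plus strand, chr1:212565196-212565243, before 1 of its 2 start sites) a C/EBP-ATF element.
HERPUD1: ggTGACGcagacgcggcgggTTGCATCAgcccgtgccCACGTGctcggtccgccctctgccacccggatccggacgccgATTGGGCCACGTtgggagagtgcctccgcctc
DNAJB9: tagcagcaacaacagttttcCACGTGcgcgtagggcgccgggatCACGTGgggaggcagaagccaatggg
HSPA5: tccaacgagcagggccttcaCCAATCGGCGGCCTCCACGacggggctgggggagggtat
ATF3: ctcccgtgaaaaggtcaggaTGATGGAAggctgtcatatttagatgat

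RefSeq windows from 250 bases before to 50 bases after a start were matched for 33 of the 34 genes (all but PDIA3) and searched on both strands. The 17 folding genes counted here therefore hold SYVN1, which was not tested on the arrays, and lack PDIA3. The ER stress element (CCAAT, 9 bases of any kind, CCACG) was present in 6 of 17 folding genes, 1 of 5 sensors and factors (XBP1) and 0 of 11 ATF4-branch genes, or 21.2% of members against 0.0916% of the 27305 genes with a window. The second element (ATTGG, 1 base, CCACG) was present in 3 members, HERPUD1, HYOU1 and SDF2L1 (9.09% against 0.0696%). The XBP1 core ACGTG, which a palindromic CACGTG holds on both strands and which can overlap the second element, was in 13 members (39.4% against 24.9%). The C/EBP-ATF element (TTGCATCA or TGATGNAA) was in 4, ATF3, ASNS, CHAC1 and HERPUD1 (12.1% against 4.46%). The full CRE, TGACGTCA, was in PPP1R15A alone (3.03% against 2.25%), and its short form TGACG in 13 members (39.4% against 28.4%). EIF2AK3 held only an XBP1 core after its start, and the ERN1 window held none of these letters. A match describes the sequence and is not a measured site of binding. The ER stress elements and the members were both picked as known parts of this response. The higher share among members is therefore no independent result, and it was not tested.

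ERN1 and ATF3 had the greatest mean differences at 2 h among the 33 genes but did not pass in the fit without a block. That fit is the main one at 2 h because the replicate numbers did not pair these arrays by the rule used here. The rule asks that same-numbered arrays correlate above 0.1 for every number, and replicate 1 alone missed it, at 0.080. Replicates 2, 3 and 4 gave 0.67, 0.83 and 0.48. The blocked values, with which both genes passed, stand with the other alternatives. ERN1 gave 399, 602, 323 and 563 with vehicle and 822, 1099.7, 519.8 and 987 with indacaterol. Replicate 3 was the lowest array of both groups, and the groups overlapped only through its treated array. Within each replicate number the log2 difference was 1.01, 0.85, 0.66 and 0.79, all positive, and the change was 0.83 ± 0.25 (limma, adjusted p = 0.11). Without replicate 3 it was 0.89 and passed (adjusted p = 4.78e-05). Its other probe sets gave 0.36 and 0.32 (adjusted p = 0.658 and 0.362).

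ATF3, a transcription factor of the ATF4 branch, gave 2341, 876, 543 and 747 with vehicle and 4558, 1917, 1273 and 1518 with indacaterol. Replicate 1 was the brightest array of every group in the study (2251 to 4688 over its 16 arrays), and replicate 3 ranged from 419 to 1931. The difference within each number was 0.96, 1.12, 1.21 and 1.01, and the change was 1.07 ± 0.60 (adjusted p = 0.726). The rest of the ATF4 branch gave smaller values: ATF4 itself -0.16 (95% interval -0.40 to 0.069), DDIT3, the pro-apoptotic factor CHOP, 0.051 (-0.51 to 0.61), and CHAC1, which degrades glutathione, -0.31 (-0.89 to 0.28). ASNS, asparagine synthetase, differed by 0.11 (-0.48 to 0.70), and VLDLR, a lipoprotein receptor, by 0.30 (0.054 to 0.55, adjusted p = 0.432).

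**Figure D2:**
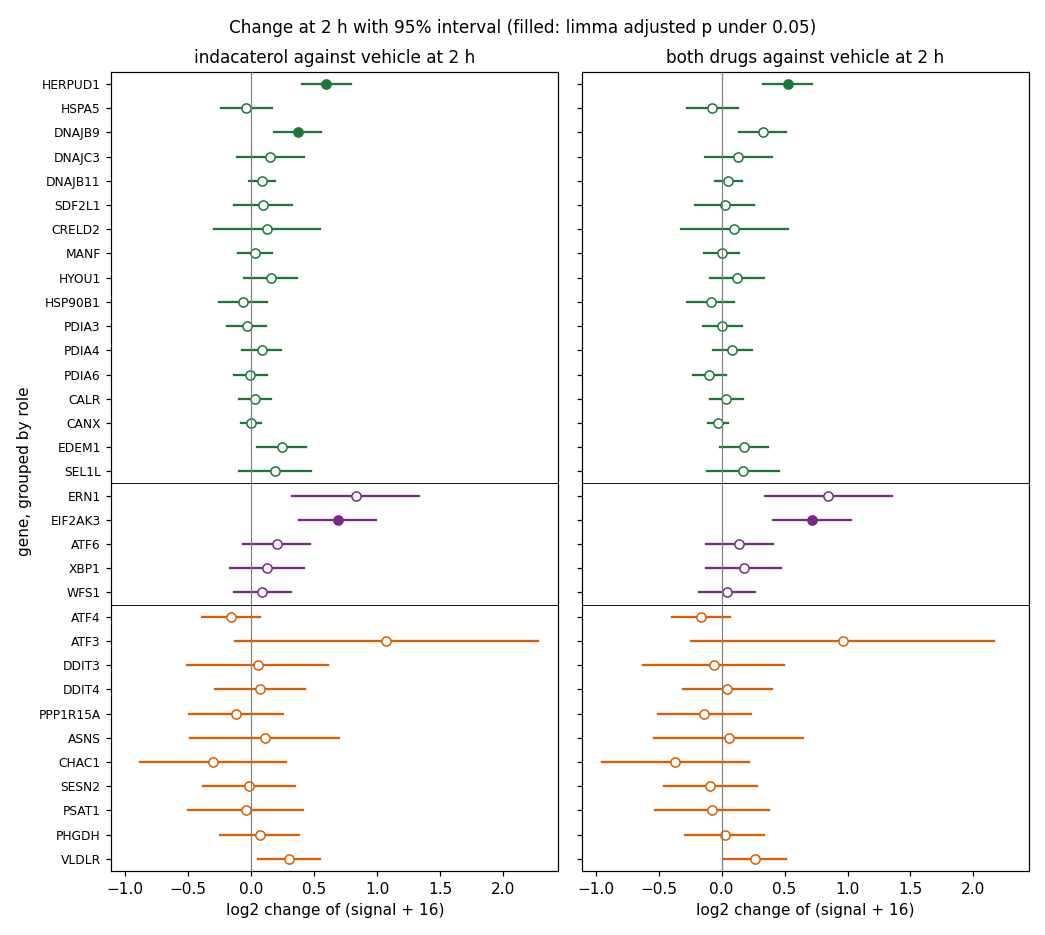
Log2 change of (signal + 16) at 2 h (horizontal axis) with its 95% interval for each of 33 genes, for indacaterol (left) and both drugs (right) against the same vehicle arrays, n = 4 per group. Green marks folding and degradation, purple sensors and factors, orange the ATF4 branch; filled points passed limma's adjusted p under 0.05, and the widest intervals belong to ATF3.

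Set side by side at 2 h, the folding genes had a median change of 0.083 with 12 of 17 above 0, the sensors and factors 0.20 with 5 of 5, and the ATF4 branch 0.051 with 6 of 11. The median of all genes was -0.00018. The difference between the branches was not tested. EDEM1 and SEL1L, which act in ER-associated degradation, gave 0.24 ± 0.095 and 0.19 ± 0.14 (adjusted p = 0.397 and 0.891). EDEM1 signals were 1409, 1622, 1416 and 1698 with vehicle and 1808, 1947, 1652 and 1852 with indacaterol, which overlapped.

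A wider list of other folding and ER transport genes, likewise chosen with results of these data known, had 0 of 35 genes called with indacaterol at 2 h (7 at an unadjusted p under 0.05, limma, against the 8.01% of all genes). A list of other ATF4 and amino acid response genes had 3 of 39 called, against 1.2% of all genes. They were SLC7A1, a cationic amino acid transporter (0.46 ± 0.09, adjusted p = 0.00111), CEBPB, a transcription factor (0.55 ± 0.12, adjusted p = 0.00503), and JDP2, a bZIP factor (0.37 ± 0.094, adjusted p = 0.027). The cystine transporter SLC7A11 gave 0.80 ± 0.27 (adjusted p = 0.211).

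At 1 h indacaterol gave 0 calls among the 33 genes without a block (background 0.212%; 1 gene at an unadjusted p under 0.05, limma, against 7.07% of all genes). Arrays of 1 replicate number deviated together in both groups here, so the fit with the number as a term, the replicate block, is given too: it called 2 (background 1.04%), and DDIT4 as well without replicate 3 (0.33, adjusted p = 0.0172). HERPUD1 gave 3397, 2847, 3587 and 3027 with vehicle and 4841, 3918, 3922 and 3427 with indacaterol, overlapping between replicates but higher within every number. The change was 0.32 (adjusted p = 0.234, and 0.00233 with the block). ATF3 gave 3138, 1151, 741 and 1258 and 4688, 2462, 1848 and 1741, a change of 0.86 (adjusted p = 0.918, and 3.91e-05 with the block). EIF2AK3 and DNAJB9 were at 0.16 and 0.09, and neither passed in either fit.

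At 6 h limma again called 0 of 33 without a block (background 0.273%; 4 at an unadjusted p under 0.05, against 4.79% of all genes). With the block, which the arrays' shared deviations support here as well, it called 2 folding genes (background 2.31%). HERPUD1 gave 2852, 2541, 2949.9 and 2318 and 3360.0, 3122, 3089.6 and 3044, with no overlap and a change of 0.25 (adjusted p = 0.747, and 0.0211 with the block). EDEM1, which directs misfolded glycoproteins to degradation, gave 1303, 1449, 1209 and 1397 and 1481, 1749, 1273 and 1768, a change of 0.22 (adjusted p = 0.923, and 0.0411 with the block). DNAJB9 and XBP1 differed by 0.24 and 0.35 and did not pass in either fit.

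At 18 h indacaterol gave 0 calls (background 0.00506%; 0 at an unadjusted p under 0.05, limma, against 4.42% of all genes). HERPUD1 stood at 2817, 2777, 3200.4 and 2602 with vehicle and 2655, 2462, 2745 and 2538 with indacaterol, a difference of -0.13 (95% interval -0.33 to 0.068). For 1 of 33 genes, HERPUD1, the effect of indacaterol was unequal across the 4 times (limma F-test, adjusted p = 0.0245; background 0.268%), at 0.32, 0.60, 0.25 and -0.13 in order of time. That call was lost without replicate number 1, 2 or 3 (0.229, 0.848 and 0.254), with only the groups compared (0.0819) and with the gene's probe sets averaged (0.999995). It was also lost without 1 of 7 single arrays: vehicle replicate 2 or 4 at 2 h (0.064 and 0.0626) or 3 at 18 h (0.087), indacaterol replicate 1 or 3 at 2 h (0.0907 and 0.0625) or 2 or 4 at 18 h (0.0741 and 0.0626). With the block the test called 3 (background 1.99%): HERPUD1, ATF3 (adjusted p = 0.000571) and ERN1 (5.54e-05).

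**Figure D3:**
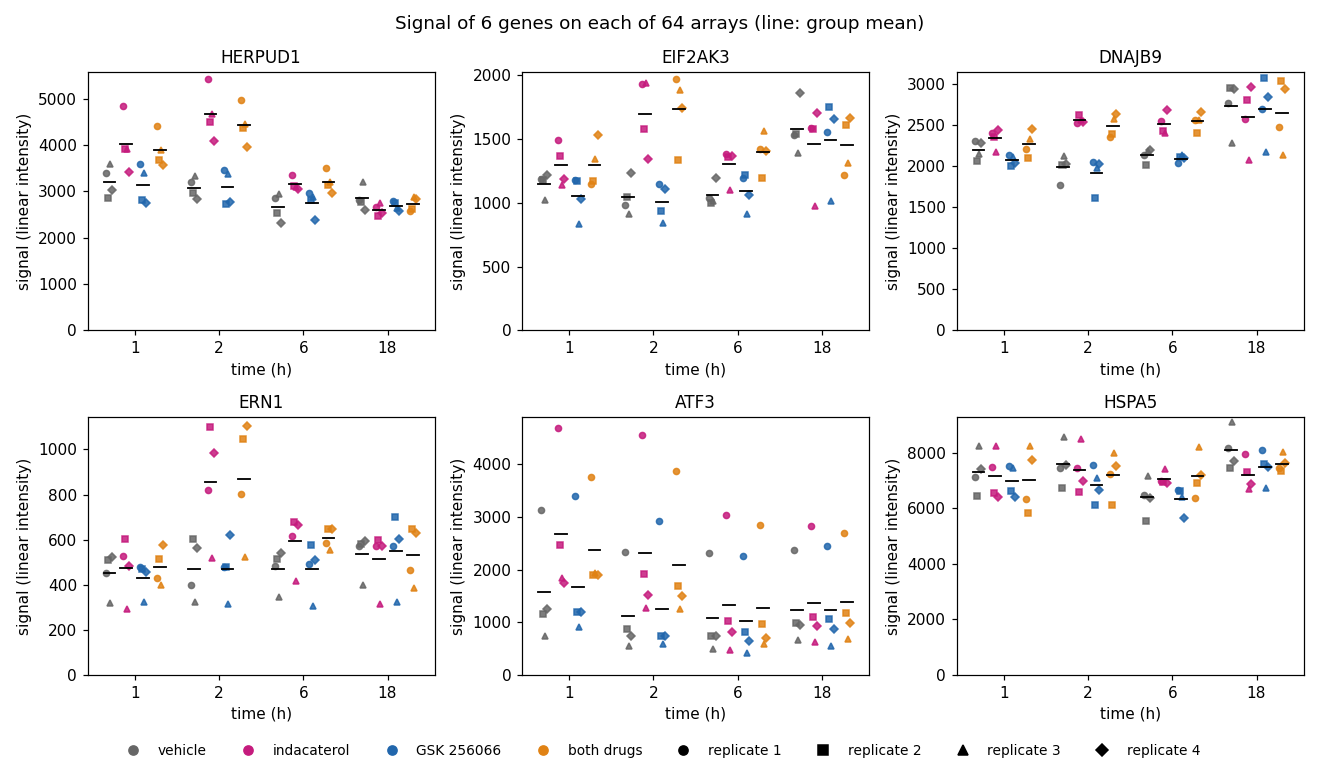
Signal (linear intensity, vertical axis from 0) of HERPUD1, EIF2AK3, DNAJB9, ERN1, ATF3 and HSPA5 on each of 64 arrays by time (horizontal axis), treatment (colour) and replicate number (marker shape), with the mean of each group of 4 as a line. The group means of HERPUD1 are highest at 2 h with indacaterol or both drugs, ATF3 is highest in replicate 1 of every group, and HSPA5 overlaps between treatments at 2 h.

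Both drugs together were compared with the same vehicle arrays, so the 2 sets of values share them. With both drugs 2 of 33 genes rose at 2 h (background 1.05%). HERPUD1 was 4982, 4372, 4462 and 3956, above every vehicle array, with a change of 0.52 ± 0.098 (limma, adjusted p = 0.000589). EIF2AK3 was 1971, 1339, 1885 and 1740.1, likewise without overlap, with a change of 0.72 ± 0.15 (adjusted p = 0.00403). No single array decided either call, but EIF2AK3 lost it without replicate number 1 (0.258), and both lost it with only the arrays compared (0.0846 and 0.117) or with probe sets averaged (0.896 and 0.434).

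The replicate numbers paired these arrays, and with the block both drugs raised 6 of 33 genes at 2 h (background 3.45%). The 4 further genes were DNAJB9, ERN1, ATF3 and VLDLR. DNAJB9 was 2356, 2383, 2571 and 2626, above every vehicle array, a change of 0.33 (adjusted p = 0.0762, 0.015 in the blocked fit and, unblocked, 0.0242 with replicate 3 left out). ERN1 was 803, 1047, 524 and 1105, a change of 0.85 (adjusted p = 0.103, 1.7e-08 in the blocked fit and, unblocked, 3.91e-05 with replicate 3 left out). As with indacaterol alone, replicate 3 was its lowest array in either group. ATF3 was 3880.3, 1689.6, 1252 and 1507, a change of 0.96 (adjusted p = 0.949, and 1.03e-06 with the block). VLDLR was 549, 476, 619.9 and 588 with vehicle and 704, 572, 733 and 683 with both drugs, which overlapped, and passed narrowly with the block (0.26, adjusted p = 0.0498, and 0.225 without replicate 3). The other 5 were also called in the block of replicates 1, 2 and 4.

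At 1 h both drugs gave 0 calls (background 0.283%; 1 gene at an unadjusted p under 0.05, limma, against 9.38% of all genes), with HERPUD1 at 0.27 ± 0.098 and ATF3 at 0.73 ± 0.60. At 6 h limma called 0 of 33 without a block (background 0.759%; 6 at an unadjusted p under 0.05, against 7.64% of all genes) and 5 with it (background 5.27%). HERPUD1, EDEM1, ERN1 and XBP1 rose with the block, by 0.27, 0.29, 0.37 and 0.44 (adjusted p = 0.00558, 0.00111, 0.0172 and 0.0461). The next brightest probe set of ERN1 gave -0.13. XBP1, for which vehicle gave 1713, 1476, 1910.3 and 1839.7 and both drugs 2015, 2085, 2881 and 2498, did not overlap between the groups. WFS1, an ER calcium protein, fell by 0.22 on the log2 scale (adjusted p = 0.0219 with the block). In a block of replicates 1, 2 and 4 alone, ERN1, XBP1 and WFS1 were no longer called (adjusted p = 0.19, 0.142 and 0.203).

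At 18 h both drugs gave 0 calls (background 0.0354%; 1 gene at an unadjusted p under 0.05, limma, against 5.22% of all genes). HERPUD1 was 2583, 2617, 2872 and 2829.7, a difference of -0.061 (95% interval -0.26 to 0.14). The effect of both drugs differed between times for 0 of 33 genes (background 0.344%; 4 at an unadjusted p under 0.05, limma F-test, against 5.42% of all genes) and for 5 with the block (background 2.91%): HERPUD1, ERN1, ATF3, EDEM1 and EIF2AK3. Without replicate 3 the unblocked test called ERN1 (adjusted p = 0.0219) and the block HERPUD1 and ERN1 (adjusted p = 0.00763 and 0.000149).

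GSK 256066 alone gave 0 calls among the 33 genes at 1, 2, 6 and 18 h, against backgrounds of 0.00506%, 0%, 0% and 0%. The number of members at an unadjusted p under 0.05 was 0 at each time (limma), against 7.1%, 4.55%, 1.75% and 3.56% of all genes. HERPUD1 with GSK 256066 was 3464, 2739, 3382 and 2770.2 at 2 h, to either side of the vehicle arrays. The differences from vehicle were -0.04 (-0.24 to 0.16), -0.0015 (-0.20 to 0.20), 0.05 (-0.15 to 0.25) and -0.081 (-0.28 to 0.12) at 1, 2, 6 and 18 h. EIF2AK3 and ERN1 were at -0.052 (-0.36 to 0.26) and 0.0059 (-0.50 to 0.51) at 2 h. These intervals span 0 and do not show that the inhibitor left the genes as they were.

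Adding GSK 256066 to indacaterol gave 0 calls among the 33 genes against indacaterol alone at 1, 2, 6 or 18 h (backgrounds 0%, 0%, 0% and 0%). Of the members 0 had an unadjusted p under 0.05 (limma), against 1.26%, 1.28%, 1.75% and 1.55% of all genes. A lack of calls does not show that the genes were unchanged. At 2 h the difference between both drugs and indacaterol was -0.071 (-0.27 to 0.13) for HERPUD1, 0.03 (-0.28 to 0.34) for EIF2AK3, -0.043 (-0.23 to 0.14) for DNAJB9 and 0.017 (-0.49 to 0.52) for ERN1. The test of whether the combination departed from the sum of the single effects also called 0 members at each time (backgrounds 0%, 0%, 0% and 0%; 0 at an unadjusted p under 0.05, limma, against 2.77%, 2.32%, 1.31% and 2.43% of all genes). For HERPUD1 at 2 h that departure was -0.07 (-0.35 to 0.21), and for ERN1 0.011 (-0.70 to 0.72).

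Some members also differed with time in culture. Taking the 16 arrays of each time together, 13 of 33 genes differed between 18 h and 1 h, 9 higher and 4 lower (background 18.5%). The 9 were 7 folding genes (MANF, DNAJB9, DNAJB11, CRELD2, PDIA6, CALR, CANX) with VLDLR and EIF2AK3, and the 4 were HERPUD1, DDIT4, PPP1R15A and WFS1. At 6 h 5 genes were lower than at 1 h and 0 higher: HERPUD1, EDEM1, ATF3, PPP1R15A and XBP1. The background was 14.5%, with 8.42% of all genes lower and 6.03% higher. At 2 h PPP1R15A was lower and ERN1 higher (2 of 33, background 5.47%, with 4.54% lower and 0.93% higher). In this fit without a block the counts at 2 and 6 h were near the backgrounds. By treatment the differences of ERN1 from 1 h were vehicle 0.044, GSK 256066 0.10, both drugs 0.79 and indacaterol 0.82. The numbers paired the arrays, and with the block the counts were 8, 13 and 23 at 2, 6 and 18 h (backgrounds 14.4%, 26.5% and 30.9%), 7 of the 8 at 2 h being ATF4-branch genes that fell. Of all genes 11.4% fell and 2.99% rose with the block at 2 h, and of the 39 other ATF4 and amino acid genes 6 rose and 2 fell. Without replicate 3 the block called DDIT4 higher at 2 h (0.14, adjusted p = 0.00752) and no longer called DDIT3 and VLDLR (0.0654 and 0.0607) and WFS1 at 6 h (0.183).

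Without replicate 3 further members passed in the unblocked fit. At 18 h these were HSPA5 (0.16, adjusted p = 0.0156), PDIA3 (0.13, 0.00158), PDIA4 (0.16, 0.00518), ASNS (0.31, 0.0303), ATF6 (0.14, 0.0182) and the tested probe set of ERN1 (0.23, 0.00956), all higher than at 1 h. At 6 h they were PSAT1 (0.26, 0.0379) and the same probe set of ERN1 (0.20, 0.0368). The block without replicate 3 added HSPA5 (adjusted p = 0.00379), SEL1L (0.00226) and XBP1 (0.0224) at 18 h.

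**Figure D4:**
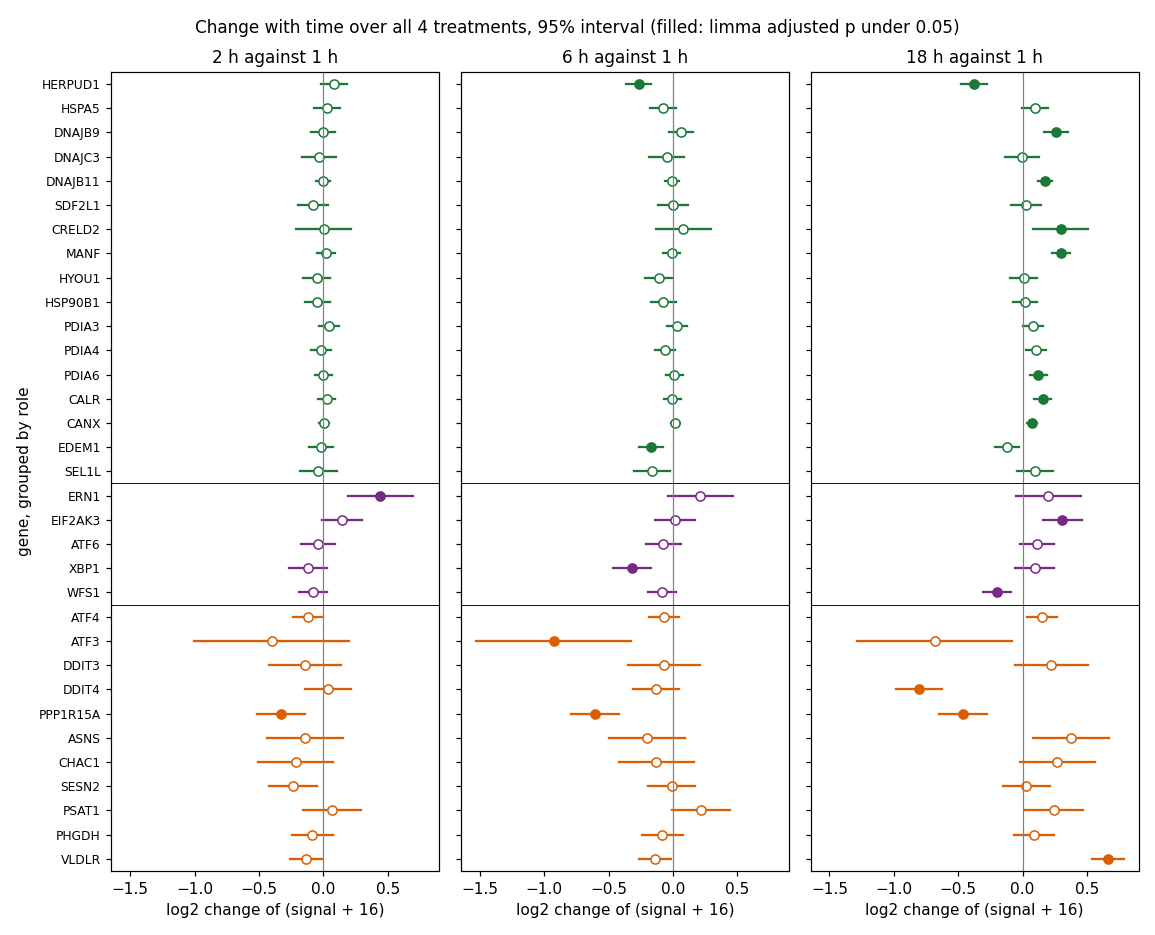
Log2 change of (signal + 16) at 2, 6 and 18 h against 1 h (horizontal axes) with its 95% interval, each from 16 arrays of all 4 treatments per time. Filled points passed limma's adjusted p under 0.05; at 18 h 7 of the 17 folding genes in green are filled to the right of 0, while HERPUD1, DDIT4, PPP1R15A and WFS1 are filled to its left.

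VLDLR had a lowest, median and highest signal of 525, 700.1 and 768 at 1 h and 994, 1093 and 1161 at 18 h, so the 2 times did not overlap. It rose by 0.66 ± 0.061 (limma, adjusted p = 3.04e-12). MANF, a secreted ER stress protein, went from 4022, 4259 and 4751 to 4858, 5293 and 5571, also without overlap, and rose by 0.30 ± 0.034 (adjusted p = 1.16e-09). DDIT4, an inhibitor of mTORC1 signalling, went from 5762, 7969.6 and 11678 to 3589.8, 4074 and 7924 and fell by 0.80 on the log2 scale (SE 0.089, adjusted p = 4.74e-10). Its arrays at 18 h split by number: replicates 1, 2 and 4 with vehicle were at 3753, 3722 and 3589.8, replicate 3 at 6247.

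HERPUD1 had a lowest, median and highest signal of 2745, 3575 and 4841 at 1 h, 2739, 3710.2 and 5428 at 2 h, 2318, 2966 and 3509 at 6 h and 2462, 2698 and 3200.4 at 18 h. It fell by 0.27 at 6 h and by 0.38 at 18 h (adjusted p = 4.9e-05 and 3.2e-08). By treatment, the difference at 18 h varied (vehicle -0.17, GSK 256066 -0.21, both drugs -0.51 and indacaterol -0.62), and in vehicle alone it did not pass (adjusted p = 0.633). PPP1R15A, the GADD34 subunit that directs dephosphorylation of eIF2-alpha, went from 849, 1101 and 1303 at 1 h to 422, 759 and 937 at 6 h. It fell by 0.33, 0.61 and 0.46 at 2, 6 and 18 h (adjusted p = 0.0214, 1.84e-06 and 0.000125), and its other probe set gave -0.67 at 6 h. The call at 2 h was lost without indacaterol replicate 3 at 2 h (0.0526) and without replicate number 1, 2 or 4 (0.163, 0.11 and 0.174).

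Further folding genes rose less at 18 h: DNAJB9 by 0.26, DNAJB11, a co-chaperone, by 0.17, CALR, calreticulin, by 0.16, PDIA6, a disulphide isomerase, by 0.12 and CANX, calnexin, by 0.072 (adjusted p from 1.08e-06 to 0.00464). PDIA6 lost its call without replicate number 2 (0.0972) and CANX without 1 or 2 (0.0659 and 0.112) or with the mean of its probe sets (0.0594). CRELD2, a secreted ER stress protein, rose by 0.29 ± 0.11 (adjusted p = 0.0414). Its signal was higher on every replicate 3 array (2806 to 3361) than on any other (at most 2797), as held for 1.66% of all genes. Its call was lost without replicate number 1, 2 or 4 (adjusted p = 0.234, 0.245 and 0.14), under quantile normalization (0.0799) and in 18 of the 32 fits that left out a single array, spread over all 4 treatments, with adjusted p up to 0.0827 (without vehicle replicate 3 at 18 h). HSPA5 differed by 0.096 (-0.004 to 0.20) and did not pass in either fit of all arrays, but passed without replicate 3, as given above. EIF2AK3 rose by 0.31 (adjusted p = 0.0021, and 0.0653 without replicate number 4). WFS1 fell by 0.20 (adjusted p = 0.00649), a call lost without number 1, 2 or 4 (0.0764, 0.0606 and 0.0827).

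XBP1 went from a lowest, median and highest signal of 2119, 2484 and 3244 at 1 h to 1476, 1963 and 2881 at 6 h and 1949, 2785 and 3236 at 18 h. It fell by 0.32 at 6 h (adjusted p = 0.00123) and differed by 0.092 at 18 h. The call at 6 h was lost with the mean of its probe sets (-0.16, adjusted p = 0.158), and the arms gave vehicle -0.56, GSK 256066 -0.37, both drugs -0.15 and indacaterol -0.20. EDEM1 fell by 0.17 at 6 h (adjusted p = 0.00865), a call lost without replicate number 1 (0.21). Its arms gave vehicle -0.34, GSK 256066 -0.21, both drugs -0.020 and indacaterol -0.12. ATF3 fell by 0.93 ± 0.30 at 6 h (adjusted p = 0.0264), a call lost without replicate number 2, 3 or 4 (0.169, 0.109 and 0.187) and without any 1 of 7 arrays: replicate 1 at 1 h with vehicle, indacaterol or GSK 256066, or replicate 3 at 6 h in any of the 4 treatments (adjusted p up to 0.059, without vehicle replicate 1). The arms gave vehicle -0.59, GSK 256066 -0.78, both drugs -1.12 and indacaterol -1.22.

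The tested probe set of ERN1 rose by 0.44 at 2 h (adjusted p = 0.0231), a mean over arrays with and without indacaterol. That call was lost without replicate number 1, 2 or 4 (0.178, 0.22 and 0.214), with only the groups compared (0.0535) and with the mean of its probe sets (0.043, adjusted p = 0.901). The gene's probe sets disagreed over time: the others gave -0.30 and -0.0086 at 2 h. Later the one tested gave 0.21 and 0.20 at 6 and 18 h, and the next brightest -0.75 and -0.75 (adjusted p = 3.98e-08 and 2.14e-08), so no direction with time is given for the gene.

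The amino acid synthesis genes ASNS and PSAT1 passed with time under the block and, with all arrays, not without it. ASNS gave a lowest, median and highest signal of 938, 1303 and 1976 at 1 h and 1166, 1589 and 3157 at 18 h, with vehicle arrays at 1534, 1254, 1976 and 1033 and 1623, 1166, 2659 and 1371. Replicate 3 was the highest array in both, and the change over all treatments was 0.37 ± 0.15 (adjusted p = 0.0716, and 2.07e-09 with the block). PSAT1, of serine synthesis, gave 0.24 (adjusted p = 0.15, and 6.99e-05 with the block), and DDIT3 0.22 (0.321, and 3.16e-05). ATF4 went from -0.12 at 2 h to 0.15 at 18 h (adjusted p = 0.0041 and 0.000105 with the block, and 0.303 and 0.0693 without it).

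Of the other lists, 8 of 35 folding and transport genes were higher and 1 lower at 18 h than at 1 h, and of the other ATF4 and amino acid genes 10 of 39 were higher and 5 lower. Of all genes 11.4% were higher and 7.12% lower. Those higher included STT3A, an oligosaccharyltransferase subunit (0.42, adjusted p = 8.38e-06), and MTHFD2, of mitochondrial folate metabolism (0.28, adjusted p = 1.74e-07). CEBPB fell by 0.74 (adjusted p = 6.15e-14). The median change at 18 h was 0.094 for the member folding genes, 0.15 for the member ATF4 branch and 0.0039 for all genes.

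In the vehicle arrays alone, where no drug acts, 0 of 33 genes differed between 2 h and 1 h (background 0.192%; 2 at an unadjusted p under 0.05, limma, against 12.5% of all genes). At 6 h XBP1 was lower, at 1713, 1476, 1910.3 and 1839.7 against 2533, 2132, 2882 and 2744, without overlap (-0.56 ± 0.15, adjusted p = 0.0381; background 1.21%). That call rested on nearly every array: leaving out any 1 of the 8 except vehicle replicate 2 at 1 h ended it, with adjusted p up to 0.147 (without replicate 2 at 6 h), as did leaving out any replicate number (0.341, 0.116, 0.0597 and 0.188 without 1 to 4) or fitting only the 8 arrays (0.14) or averaging its probe sets (-0.41, adjusted p = 0.213). With the block 6 genes fell (background 7.02%): XBP1, HERPUD1, HYOU1, EDEM1, ATF3 and PPP1R15A. HYOU1, an ER chaperone, was no longer called without replicate 3 (0.239), and the other probe sets of ATF3 gave -0.53 and 0.23. For EDEM1 all 4 arrays at 6 h lay below all 4 at 1 h, 1303, 1449, 1209 and 1397 against 1766, 1685, 1569 and 1751 (-0.34, adjusted p = 0.0635, and 0.000213 with the block), and so they did for PPP1R15A, 802, 937, 559 and 799.8 against 1253, 1283, 1088 and 1114 (-0.62, adjusted p = 0.0827, and 4.22e-06 with the block). Both passed without a block when replicate 3 was left out (adjusted p = 0.0318 and 0.00664).

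At 18 h against 1 h in vehicle, MANF and VLDLR rose and DDIT4 fell (3 of 33, background 1.58%). MANF was 5439, 5329, 5424 and 4999 against 4074, 4143, 4288 and 4572, and VLDLR 1036, 1098, 1109 and 1161 against 727, 626, 768 and 705, neither with any overlap. The changes were 0.31 ± 0.069 (adjusted p = 0.00652) and 0.63 ± 0.12 (adjusted p = 0.0015). DDIT4 was 3753, 3722, 6247 and 3589.8 against 7399, 6013, 8972 and 5762, overlapping only through replicate 3 at 18 h (-0.72 ± 0.18, adjusted p = 0.0192, and 3.51e-06 without replicate 3). With the block 8 genes differed (background 7.92%): DNAJB9, CRELD2, MANF, VLDLR and EIF2AK3 were higher, and DDIT4, PPP1R15A and WFS1 lower. CRELD2 was no longer called in that block without replicate 3 (0.0942). Without a block, leaving out replicate 3 added DNAJB9, PPP1R15A and WFS1 (adjusted p = 0.00749, 0.00131 and 0.0183). MANF lost its call without replicate number 1, 2 or 3 (0.155, 0.147 and 0.0816) or with only the 8 arrays (0.143), VLDLR without 1 or 4 (0.057 and 0.0731), and DDIT4 without 1, 2 or 4 (0.423, 0.203 and 0.157) or without vehicle replicate 1, 2 or 4 at 18 h or 1 or 3 at 1 h (0.0858, 0.0845, 0.108, 0.0789 and 0.126) or with only the 8 arrays (0.247).

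The members' signals spanned a wide range of brightness, and levels are given within each probe set only. Over the 64 arrays CANX ranged from 8871 to 10387, HSPA5 from 5557 to 9116 and DDIT4 from 3589.8 to 11678. The dimmest tested probe set of a member was that of CHAC1, at 76.2 to 371, and DDIT3 and SESN2 ranged from 305 to 908 and 283 to 636. The spread over all arrays on the log2 scale (SD) was widest for ATF3, 0.90, and narrowest for CANX, 0.051. For ATF3 most of it lay between replicate numbers, 2251 to 4688 in replicate 1 against 641 to 1898 in replicate 4.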

How the data were processed

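Total RNA of BEAS-2B cells was hybridised to 64 HG-U133 Plus 2 arrays, 16 groups of 4. Per the submitters' processing notes the deposited values were made with PLIER in Transcriptome Analysis Console 4, and per the values of the deposited table they are normalised intensities on a linear scale. Settings of that step are not given in the sources used here. Each gene was represented by its brightest probe set (highest mean) among those with 1 symbol in the platform annotation (41091 probe sets; 1801 have several symbols and 11721 none), with symbols updated by gene ID, transformed to log2(intensity + 16) and tested for all 19775 genes in 1 limma fit (version 3.58.1, R 4.3.3) of 16 group means with 48 residual degrees of freedom. P-values were adjusted by Benjamini-Hochberg over all genes, with a threshold of 0.05, and 28 comparisons were made. The test was checked on simulated data with independent noise on each array and no effect of replicate number. That check therefore does not cover the shared deviations of same-numbered arrays.

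The members, the gene lists and the alternatives were chosen with earlier results of these data known. Any member may be named, and values of single arrays are given for the 12 called members with the greatest absolute log2 change. The replicate number was used as a block as an alternative. It was taken to pair arrays where same-numbered arrays correlated above 0.1, as deviations from group means over all genes, for every number, which held for 23 of the 28 comparisons. The exceptions were indacaterol, GSK 256066 and vehicle against their controls at 2 h, and both drugs against vehicle or indacaterol at 1 h. Replicate 1 alone missed the limit in them, at correlations from -0.053 to 0.091. The number of arrays limits precision. The share of all genes with groups that do not overlap is not given, so a lack of overlap only describes the arrays of the gene named.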

Additional observations from a re-analysis of the deposited data

Results flagged for a closer look

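Of 192 groups of 4 arrays (12 genes by 16 groups) 16 had 1 array far from the others, where chance gives about 1 in 20. In most of them it was replicate 3. DDIT4 was high there at 18 h, at 6247 with vehicle, 7038 with indacaterol and 7924 with both drugs. ERN1 was low there, at 323 with GSK 256066 at 1 h, 399.7 with vehicle at 18 h and 316 with indacaterol at 18 h. EIF2AK3 was low there with indacaterol at 6 h (1104) and 18 h (975), PPP1R15A with indacaterol at 2 h (606) and 6 h (462), and XBP1 with indacaterol at 18 h (1949). ATF3 was high in replicate 1, at 3765 with both drugs at 1 h and 2919.9 with GSK 256066 at 2 h. Replicate 2 was low for VLDLR with both drugs at 1 h (525) and indacaterol at 2 h (592), and for DNAJB9 with GSK 256066 at 2 h (1607). The indacaterol effect on HERPUD1 differed between the 4 times (limma F-test, adjusted p = 0.0245), from 0.60 at 2 h to -0.13 at 18 h, with 4 of 4 treated arrays above their same-numbered vehicle array at 2 h and 0 of 4 at 18 h.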

How the results depend on the processing

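The counts of called members were recomputed under each alternative, over 28 comparisons, and those within 1.5 times the count reported are not repeated. With the mean of a gene's probe sets the counts were 0 for indacaterol at 2 h, 0 for both drugs at 2 h, 0 for vehicle at 6 h, 1 for all treatments at 2 h and 0 for the indacaterol effect between times. With only the groups compared, which leaves fewer arrays to estimate the spread, they were 0, 0 and 0 for indacaterol at 2 h, both drugs at 2 h and vehicle at 6 h, 1 for vehicle at 18 h, 1 for all treatments at 2 h and 0 for the indacaterol effect between times. Quantile normalization gave 1 for both drugs at 6 h (EDEM1), 6 for vehicle at 18 h and 1 for the effect of both drugs between times (EIF2AK3), and a filter on genes with a mean signal under 100 gave 2 for vehicle at 6 h. Pseudocounts of 1 and 64 and a test of all probe sets left 28 of 28 counts within that limit. Each alternative moved the median change of all genes or probe sets by at most 0.067 on the log2 scale.

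With the replicate block the counts were 2, 8 and 2 for indacaterol at 1, 2 and 6 h, 2, 6 and 5 for both drugs at these times, 4, 6 and 8 for vehicle at 2, 6 and 18 h, 8, 13 and 23 for all treatments, and 3 and 5 for the effects of indacaterol and of both drugs between times. In a block of replicates 1, 2 and 4, chosen after seeing the data, they were 3, 7 and 2, then 2, 5 and 2, then 4, 5 and 7, then 7, 12 and 26, then 3 and 2. The numbers did not pair the arrays for indacaterol at 2 h, both drugs at 1 h or vehicle at 2 h. Replicate 1 alone missed the rule in each. These block counts are therefore given as alternatives only. In these comparisons the block called 3.8%, 1.43% and 4.34% of all genes. For indacaterol at 2 h it added ERN1 (adjusted p = 2.7e-08), ATF3 (7.46e-08), EDEM1 (0.0102), VLDLR (0.0155) and ATF6 (0.0257), of which VLDLR was not called without replicate 3. Otherwise the block changed the count of no comparison not listed here. Leaving out 1 array or 1 replicate number gave 1 to 4 calls for indacaterol and 1 to 4 for both drugs at 2 h, 0 to 2 and 0 to 5 for vehicle at 6 and 18 h, 0 to 2, 4 to 6 and 10 to 19 for all treatments at 2, 6 and 18 h, and 0 to 1 for either effect between times. The cause was not tested.

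Averaging probe sets turned the direction of 3 changes over all treatments: ERN1 at 6 h (-0.16) and 18 h (-0.21), whose probe sets disagree, and ASNS at 6 h (0.0037). None of the other changes, of 76 tested this way, turned under any alternative named here. Dim members such as CHAC1, at 76.2 to 371, are limited by signal over background, which was not measured.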
